A study of Mus musculus with 6 samples.

Results

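The Rab, Arf and Arl small GTPases were followed in brain tissue of Dap12-ko and Dap12-het mice. The set holds every probe set (a group of short probes for 1 transcript) whose single gene symbol in the platform annotation is Rab, Arf or Arl followed directly by a digit, without Rab interactors or Arl6ip genes. It comprised 165 of the 45037 probe sets on the arrays and 72 of the 18193 genes with a symbol of their own, namely 59 Rab, 6 Arf and 7 Arl genes. A further 34 probe sets of 15 genes that share the prefix, such as the Rab11 interactors, the Rab3 GAP subunits, Arl2bp and Arl14ep, were left out. Of the 22 tested among them, 0 were called, with 6 at an unadjusted p under 0.05 (27.3%, against 20.9% of all probe sets tested). Arl4a, Arl6, Arl8a, Arl8b and Arl13b were not analysed here.

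Dap12-ko mice lack Dap12, the adaptor encoded by Tyrobp that carries signals of receptors such as Trem2 in microglia, and were represented by 3 arrays named 67, 68 and Ko1. Dap12-het mice, the controls, are heterozygous and so carry the disrupted allele too, and were represented by 3 arrays named 75, 76 and 81; no mice without the allele were included. All were 1 month old, the RNA came from midbrain taken with diencephalon and basal ganglia, and the source name calls every sample Dap12-deficient brain, so the grouping rests on the sample titles. The labels give no strain or sex and do not say which samples came from separate animals, so the p-values reflect sample-to-sample spread, which may be technical. In bulk tissue, fewer cells of a type and less RNA per cell cannot be told apart.

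Small GTPases of these families switch between a GTP-bound form on membranes and a GDP-bound form. Exchange factors load GTP, GTPase-activating proteins (GAPs) end the active state, and for Rabs a GDP dissociation inhibitor keeps the prenylated protein soluble between rounds. Each Rab marks particular membranes and recruits effectors such as tethers, motors and sorting complexes. Arfs are myristoylated and recruit vesicle coats and lipid-modifying enzymes, and Arls act at the Golgi, on microtubules, in cilia and on lysosomes. In neurons the Rab3 proteins sit on synaptic vesicles, while in glia the same machinery serves phagocytosis, lysosomes and the delivery of myelin proteins.

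Promoters of Rab3a, Rab3c and Arf3, which hold 3 of the 6 member probe sets that rose, are shown. RefSeq (build GRCm38.p6) gave promoters, 250 bases before to 50 bases after the start, for 60 of the member genes, 75 promoters in all. Capitals mark the GC box, GGGCGG, and the CCAAT box on either strand, so a match on the opposite strand appears as the reverse complement, and none of the marked runs overlap. Rab3a is read at chr8:70754453-70754752 on the plus strand, Rab3c at chr13:110280157-110280456 on the minus strand and Arf3 at chr15:98762943-98763242 on the minus strand.
Rab3a: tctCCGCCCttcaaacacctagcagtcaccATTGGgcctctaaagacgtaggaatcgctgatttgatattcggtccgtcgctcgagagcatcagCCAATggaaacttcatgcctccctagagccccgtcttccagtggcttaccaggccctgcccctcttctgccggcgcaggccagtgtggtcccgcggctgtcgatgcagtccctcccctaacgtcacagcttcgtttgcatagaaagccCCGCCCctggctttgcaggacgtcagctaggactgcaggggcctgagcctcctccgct
Rab3c: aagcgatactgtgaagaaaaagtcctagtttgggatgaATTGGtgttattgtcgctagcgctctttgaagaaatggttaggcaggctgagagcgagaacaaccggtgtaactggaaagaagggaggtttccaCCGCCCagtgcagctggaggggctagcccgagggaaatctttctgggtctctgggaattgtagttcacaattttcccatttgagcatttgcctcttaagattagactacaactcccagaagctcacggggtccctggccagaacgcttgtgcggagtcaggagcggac
Arf3: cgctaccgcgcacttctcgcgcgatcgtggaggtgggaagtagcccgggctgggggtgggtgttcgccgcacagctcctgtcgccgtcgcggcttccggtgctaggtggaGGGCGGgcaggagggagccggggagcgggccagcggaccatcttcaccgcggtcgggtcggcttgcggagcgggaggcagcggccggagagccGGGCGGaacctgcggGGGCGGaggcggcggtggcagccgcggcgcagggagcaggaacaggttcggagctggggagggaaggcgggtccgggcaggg

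The Rab3a promoter, with 60% G and C, held GGGCGG at 2 places and CCAAT at 2. The Rab3c promoter, with 50.7%, held 1 of each. The Arf3 promoter, with 75.3%, held GGGCGG at 3 places and no CCAAT box. Over the member promoters, GGGCGG occurred in 73.3%, against 35.7% of all 32851 promoters. The CCAAT box occurred in 45.3% of member promoters and 37.4% of all. The TATA motif TATAAA occurred in 8% of member promoters and 13.6% of all. The E-box CACGTG occurred in 12% and 7.15%, and the CRE motif TGACGTCA in 2.67% and 1.79%. These matches describe the letters of the windows and no binding was measured.

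Values are deposited linear signals, compared as log2(signal + 16), so that the change of a dim probe set is understated. Of the member probe sets, 127 of 63 genes lay in the brighter part of the array and were tested, and 38 were too dim. Brightness was the mean over all 6 arrays, so some probe sets dim in Dap12-het passed only through their Dap12-ko signals. Among these were Arf3 1421789_s_at, Arf2 1438661_a_at and 1456473_x_at, Rab23 1422399_a_at, Rab27b 1417215_at and Rab5b 1422119_at. Arl11, Arl14, Rab17, Rab19, Rab20, Rab25, Rab32, Rab39 and Rab44 had no probe set tested. Levels are not compared between probe sets, since each responds on its own scale.

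Tyrobp, which checks the titles, had signals of 2.28, 23.7 and 12.9 on Dap12-ko 67, 68 and Ko1, against 70.7, 68.2 and 77.6 on Dap12-het 75, 76 and 81. It fell by 1.68 ± 0.33 on the log2 scale (SE; limma adjusted p = 0.0439), and the position of this probe set relative to the disrupted exons was not checked. The arrays also differed as wholes. Median signals were 24.68 to 40.41 on the Dap12-ko arrays and 20.34 to 21.98 on the Dap12-het arrays, and all 42 probe sets for spiked non-mouse RNA were higher on every Dap12-ko array, by 1.77 to 7.85 times (median 3.69). Array handling therefore cannot be told apart from genotype. Across all tested probe sets, Dap12-het arrays correlated with each other at 0.953 to 0.981, Ko1 with them at 0.909 to 0.93, and Dap12-ko 67 and 68 with them at 0.85 to 0.894. Ko1 correlated with 67 and 68 of its own group at 0.851 to 0.877, below its values with the Dap12-het arrays. The 3' to 5' signal ratio of Gapdh, a sign of RNA integrity, was 0.702 to 1.21 on Dap12-ko arrays and 0.997 to 1.42 on Dap12-het arrays, so the groups overlapped.

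The question was which membrane traffic GTPases differ between brains with no Dap12 and heterozygous brains. Probe sets of 6 genes rose in Dap12-ko: the synaptic vesicle GTPases Rab3a and Rab3c, the endosomal Rab31, the Golgi Rab2b, and the coat-recruiting Arf1 and Arf3. No member probe set fell at an adjusted p under 0.05 in limma, while 34 in both directions together had an unadjusted p under 0.05 (26.8%, against 20.9% of all probe sets tested). The 6 are 4.72% of the member probe sets tested, against 1.24% of all 22518 probe sets that were called higher and 0.733% that were called lower. The median difference over the members tested was 0.14 on the log2 scale, against 0.00 over all probe sets tested, and 79 of 127 (62.2%) lay above 0, against 50.1%. With arrays centred on their medians, the member median turned to -0.26, against -0.40 over all probe sets tested. Over all 165 members, the groups did not overlap with Dap12-ko higher for 39 (23.6%, against 16.9% of all probe sets), and with Dap12-ko lower for 9 (5.45%, against 7.42%). Each of the 6 calls was lost when Dap12-ko 67 or 68 or Dap12-het 75 or 81 was left out, and only Arf3 was still called without Dap12-het 76.

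**Figure D1:**
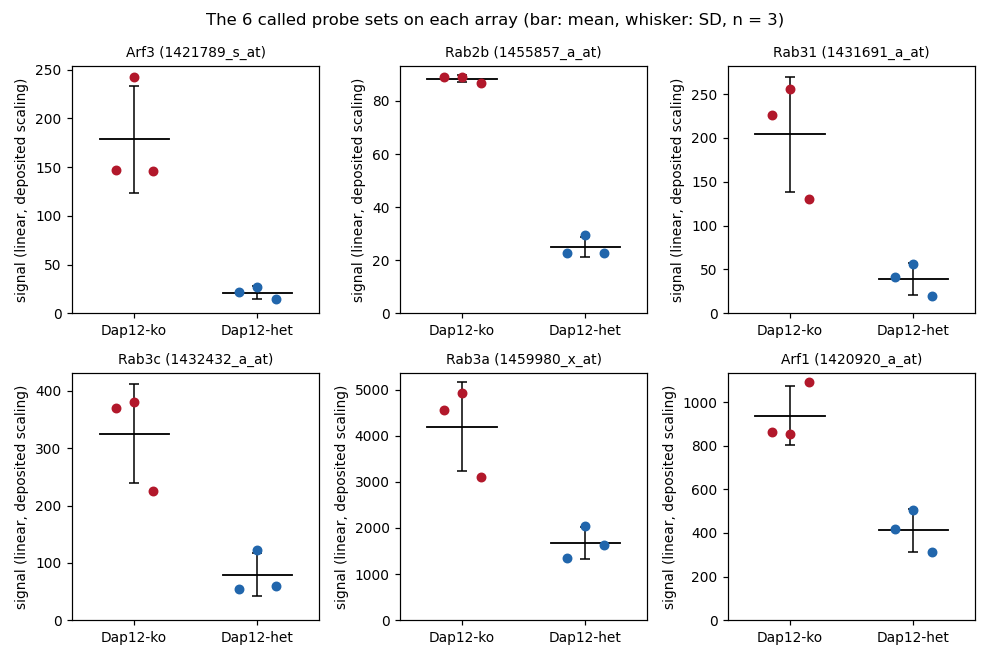
Linear deposited signal (y axis, from 0) of the 6 member probe sets called, on the 3 Dap12-ko arrays (red, left) and the 3 Dap12-het arrays (blue, right) of each panel, with the mean and SD. All 3 Dap12-ko points lie above all 3 Dap12-het points in every panel, and the Rab2b points of Dap12-ko lie between 86.8 and 89.1.

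Regulated exocytosis Rabs bring secretory and synaptic vesicles to the plasma membrane. Of their 15 tested probe sets, 2 were called higher (13.3%, against 1.24% of all probe sets tested), and the median difference was 0.32. Rab3a, the main Rab of synaptic vesicles, had signals of 4568, 4929 and 3109 on Dap12-ko 67, 68 and Ko1 in probe set 1459980_x_at, against 1351, 2039 and 1628 on Dap12-het 75, 76 and 81. The groups did not overlap, and the difference was 1.31 ± 0.23 (adjusted p = 0.0354). The other Rab3a probe set, 1422589_at, lay the opposite way, with 1419, 1618 and 1230.2 in Dap12-ko against 1990.3, 1758 and 1851 in Dap12-het. Its groups did not overlap either, and its difference of -0.40 ± 0.17 missed the threshold (adjusted p = 0.222).

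Rab3c, a relative of Rab3a on the same vesicles, gave 369.8, 381 and 225 in Dap12-ko with probe set 1432432_a_at, against 54.8, 123 and 60.1 in Dap12-het. The lowest Dap12-ko array stood above the highest Dap12-het array, and the difference was 1.87 ± 0.32 (adjusted p = 0.0344). Probe set 1449494_at of Rab3c gave 191, 240.3 and 263 in Dap12-ko against 82.1, 130.1 and 56.6 in Dap12-het, a difference of 1.28 ± 0.28 that missed the threshold (adjusted p = 0.0585). The brightest Rab3c probe set, 1435047_at, overlapped between groups, with 1282 to 2030.2 in Dap12-ko and 1339 to 1855 in Dap12-het, and differed by 0.04 ± 0.21.

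Rab3b, which takes part in vesicle release in endocrine cells and some neurons, ranged more widely among Dap12-ko arrays, at 35.0, 121 and 387, than among Dap12-het arrays, at 195, 130.0 and 209. The groups overlapped and the difference was -0.43 ± 0.63. Rab27b, which docks secretory granules, was not called in any of 4 tested probe sets, with differences from -0.67 to 0.99. Its probe set 1417215_at was the 1 whose groups did not overlap, with 49.1, 26.7 and 57.1 in Dap12-ko against 6.72, 20.7 and 15.3 in Dap12-het (adjusted p = 0.144). Rab27a, the melanosome and granule Rab, had 1 probe set tested, at -0.22 ± 0.30. Of its 3 untested, dim probe sets, 2 stood apart with Dap12-ko higher, as did 18.8% of all dim probe sets. Among these, 1425285_a_at was close to background on every array, at 6.44, 2.04 and 3.57 in Dap12-ko against 0.593, 0.536 and 0.451 in Dap12-het.

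Early endosome Rabs govern the uptake and first sorting of cargo. Of their 14 tested probe sets, 1 was called higher (7.14%, against 1.24% of all probe sets tested), and the median difference was 0.28. Rab31, which acts between the trans-Golgi network and early endosomes, gave 226, 256 and 131 in Dap12-ko with probe set 1431691_a_at, against 40.9, 56.4 and 19.9 in Dap12-het. Ko1 was the lowest of the Dap12-ko arrays and still above every Dap12-het array, and the difference was 2.01 ± 0.33 (adjusted p = 0.0326). The brighter Rab31 probe set, 1416165_at, gave 583, 609.6 and 339 in Dap12-ko against 357, 406 and 414 in Dap12-het. Here Ko1 lay below every Dap12-het array, and the difference was 0.32 ± 0.25.

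Rab5a, the organiser of early endosome fusion, had 1375, 1375 and 1166 in Dap12-ko against 1219, 1164 and 941 in Dap12-het, a difference of 0.24 ± 0.17 with overlapping groups. Its relatives Rab5b and Rab5c had differences between 0.27 and 0.85. Of these, Rab5b 1422119_at stood apart, with 56.4, 66.6 and 37.4 in Dap12-ko against 24.6, 28.4 and 14.4 in Dap12-het (adjusted p = 0.149). Rab22a, an early endosome Rab, had 4 tested probe sets that split evenly by sign, from -0.48 to 0.80.

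Recycling Rabs return cargo to the cell surface. None of their 15 tested probe sets was called, and 3 had an unadjusted p under 0.05 (20%, against 20.9% of all probe sets tested). The median difference was -0.13, with 5 of 15 above 0 (33.3%, against 50.1%). Rab14, which works between Golgi and endosomes, gave 288, 250.2 and 393 in Dap12-ko with probe set 1415686_at against 553, 519 and 501 in Dap12-het. The groups did not overlap, and the difference of -0.75 ± 0.21 missed the threshold (adjusted p = 0.0954). Its 5 other tested probe sets ranged from -0.40 to 0.99. Rab4a, the Rab of fast recycling, gave 235, 261 and 344 in Dap12-ko against 410.1, 455 and 431 in Dap12-het with 1449048_s_at, a difference of -0.61 ± 0.20 (adjusted p = 0.133). Rab11a and Rab11b, which mark the recycling endosome, had differences from -0.29 to 0.35 in 4 tested probe sets, and all of these overlapped between groups.

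Late endosome and lysosome Rabs lead cargo to degradation. None of the 13 tested probe sets was called, 2 had an unadjusted p under 0.05 (15.4%, against 20.9% of all probe sets tested), and the median difference was 0.07. Rab7, the main Rab of late endosomes, had 585, 736 and 489.8 in Dap12-ko with 1448159_at against 396, 440.0 and 314 in Dap12-het. These groups did not overlap (0.63 ± 0.22, adjusted p = 0.153), while the brighter Rab7 probe set, 1415734_at, overlapped (0.09 ± 0.15). Rab34, which positions lysosomes, had 80.8, 49.95 and 89.8 in Dap12-ko against 109.6, 131 and 129 in Dap12-het with 1416590_a_at (-0.66 ± 0.24), and 172, 155 and 188 against 146, 135 and 134 with 1416591_at (0.28 ± 0.19). Both stood apart, in opposite directions. Rab32, Rab38 and Rab29, which serve lysosome-related organelles, were dim: Rab32 was not tested, and Rab38 and Rab29 differed by -0.53 to 0.53 with overlapping groups.

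ER and Golgi Rabs carry newly made proteins through the secretory pathway. Of their 29 tested probe sets, 1 was called higher (3.45%, against 1.24% of all probe sets tested), and the median difference was 0.11. Rab2b, a Golgi Rab, gave 89.0, 89.1 and 86.8 in Dap12-ko with 1455857_a_at, against 22.8, 29.4 and 22.6 in Dap12-het. The spread within each group was small beside the gap, and the difference was 1.35 ± 0.22 (adjusted p = 0.0312). Rab2b had 4 further tested probe sets. With 1436923_at the signals were 117, 197 and 116 in Dap12-ko against 48.2, 61.1 and 49.1 in Dap12-het (1.18 ± 0.25, adjusted p = 0.055). With 1428115_a_at they were 50.5, 76.5 and 90.0 against 124, 133 and 101 (-0.64 ± 0.24, adjusted p = 0.184). The same gene thus stood apart in both directions, and its remaining probe sets differed by 0.28 and -0.22.

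Rab18, which acts at the ER and on lipid droplets, had 370.3, 518 and 485 in Dap12-ko with 1420899_at against 207, 257 and 94.98 in Dap12-het, a difference of 1.31 ± 0.33 (adjusted p = 0.0794). Its brighter probe set, 1420900_a_at, overlapped and differed by 0.11 ± 0.20. Rab6a, the Golgi Rab of retrograde transport, stood apart in opposite directions with its bright probe sets. One of them, 1448304_a_at, gave 2489, 2577 and 2059 in Dap12-ko against 1515, 1660.2 and 1574 in Dap12-het (0.57 ± 0.16, adjusted p = 0.0949), and the other, 1448305_at, gave 1735, 1785 and 2051 against 2110.1, 2569 and 2126 (-0.28 ± 0.16). Rab6b, the neuronal form, ranged from 0.07 to 0.75 over 4 tested probe sets. Rab39b, a neuronal Golgi Rab, differed by 0.72 ± 0.25 in 1453246_at and 0.03 ± 0.21 in 1435014_at. Rab1a, needed between ER and Golgi, gave 2674, 2895 and 2341 in Dap12-ko with 1416082_at against 1929.7, 2272 and 1842 in Dap12-het, apart but not called (0.39 ± 0.16, adjusted p = 0.224). Its relative Rab2a had 5 tested probe sets between -0.33 and 0.38, none called.

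Rabs of the route from the trans-Golgi network to the plasma membrane had 11 tested probe sets, none called, and a median difference of 0.26. Of these, 2 had an unadjusted p under 0.05 (18.2%, against 20.9% of all probe sets tested). Rab23, a Rab of ciliary signalling, had 36.0, 56.1 and 37.7 in Dap12-ko with 1422399_a_at against 12.2, 12.04 and 13.2 in Dap12-het (1.04 ± 0.28, adjusted p = 0.0896), and differed by 0.06 and 0.26 in the others. Rab8a, which drives traffic to the surface and the cilium, had 355, 431 and 297 in Dap12-ko against 268, 235 and 182 in Dap12-het (0.63 ± 0.22, adjusted p = 0.159), and its relative Rab8b overlapped at -0.16 ± 0.23. Rab10 and Rab12 differed by -0.20 to 0.52 over 4 tested probe sets.

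Among the remaining Rabs, 0 of 6 tested probe sets were called, and 1 had an unadjusted p under 0.05 (16.7%, against 20.9% of all probe sets tested). Rab40c, which belongs to the Rabs with a SOCS box, had 63.9, 86.0 and 65.8 in Dap12-ko with 1424332_at against 22.3, 30.3 and 22.7 in Dap12-het. The groups did not overlap, and the difference of 1.09 ± 0.24 missed the threshold (adjusted p = 0.0585). The brighter Rab40c probe set, 1424331_at, overlapped and differed by -0.33 ± 0.34. Rab28 had a difference of -0.43 ± 0.19 with 1423990_at, where the groups stood apart, and of 0.31 ± 0.32 with 1453406_a_at, where they overlapped.

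**Figure D2:**
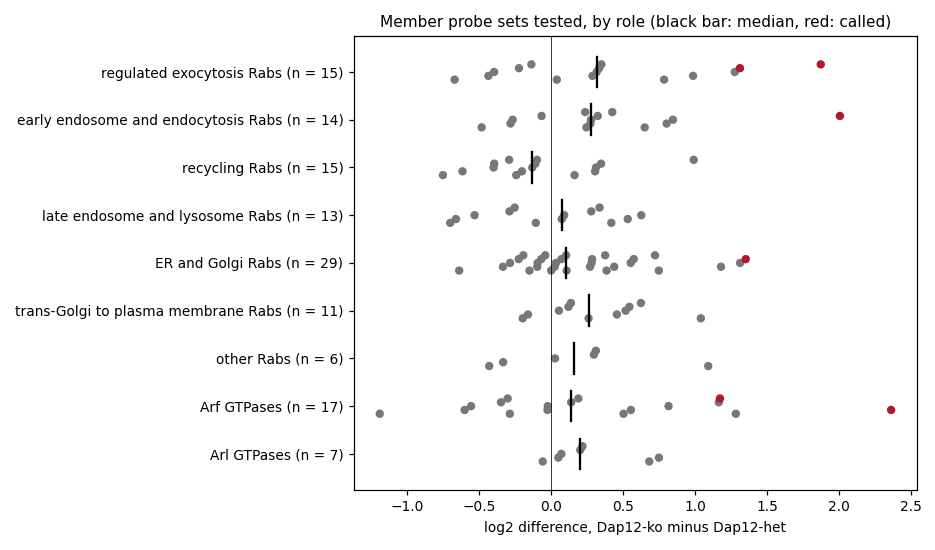
Log2 difference, Dap12-ko minus Dap12-het (x axis), of each of the 127 member probe sets tested (dots), in 1 line per role, with the median of the role as a black bar and called probe sets in red. Medians lie between -0.13 for recycling Rabs and 0.32 for regulated exocytosis Rabs, and the 6 red dots fall in 4 roles.

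Arfs had 17 tested probe sets, of which 2 were called higher (11.8%, against 1.24% of all probe sets tested), and a median difference of 0.14. Arf3, a Golgi and endosome Arf that is abundant in brain, gave 147, 242 and 146 in Dap12-ko with 1421789_s_at, against 22.2, 27.2 and 14.3 in Dap12-het. The lowest Dap12-ko signal was far above the highest Dap12-het signal, and the difference of 2.36 ± 0.27 was the largest among the members tested (adjusted p = 0.0171). This probe set was tested only because its Dap12-ko signals raised the mean over all 6 arrays that the filter used. Its brighter probe sets differed less. With 1437331_a_at the signals were 1943, 1387 and 1742 in Dap12-ko against 1052, 1137 and 1222 in Dap12-het (0.56 ± 0.18, adjusted p = 0.133), and with 1423973_a_at and 1434787_at the groups overlapped, at 0.14 and -0.02.

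Arf1, which recruits the COPI coat at the Golgi, gave 865, 856 and 1093 in Dap12-ko with 1420920_a_at, against 419, 505 and 312 in Dap12-het. All Dap12-ko arrays stood above all Dap12-het arrays, and the difference was 1.17 ± 0.22 (adjusted p = 0.0395). The brightest Arf1 probe set, 1426390_a_at, also stood apart, with 3675, 3359 and 3452 in Dap12-ko against 2411, 2363 and 2605 in Dap12-het, but its smaller difference of 0.50 ± 0.14 missed the threshold (adjusted p = 0.0977).

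Arf2, a relative of Arf1 and Arf3, had 4 tested probe sets, 3 higher without overlap (0.82 to 1.28) and 1 lower with overlap. The lower one, 1416458_at, was the brightest, and its difference of -1.19 ± 0.65 was the largest decrease among the members tested (adjusted p = 0.338). The probe set with the smallest p, 1438661_a_at, gave 55.9, 99.2 and 57.0 in Dap12-ko against 23.3, 20.7 and 13.0 in Dap12-het (1.28 ± 0.29, adjusted p = 0.0619). Arf4, an Arf of the ER-Golgi boundary and of ciliary traffic, had 473, 553 and 958 in Dap12-ko with 1423052_at against 870.0, 942 and 996 in Dap12-het. Ko1 lay among the Dap12-het arrays while 67 and 68 lay below them, and the difference was -0.56 ± 0.26 (adjusted p = 0.264). Arf5 differed by -0.29 ± 0.26, and Arf6, which acts at the plasma membrane, by -0.35 to -0.02 in 3 tested probe sets, all with overlapping groups.

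Arls had 7 tested probe sets, 0 called and 1 with an unadjusted p under 0.05 (14.3%, against 20.9% of all probe sets tested), and a median difference of 0.20. Arl15 stood apart in both of its probe sets, with 152, 91.7 and 143 in Dap12-ko against 62.5, 73.3 and 70.0 in Dap12-het for 1433642_at (0.75 ± 0.24, adjusted p = 0.125). Arl1, which recruits golgins to the trans-Golgi, Arl2, which acts in tubulin folding, and Arl3, which releases lipidated cargo into cilia, differed by 0.05 to 0.22 with overlapping groups. Of the 38 dim members, 5 stood apart with Dap12-ko higher (13.2%, against 18.8% of all dim probe sets) and 1 with Dap12-ko lower (2.63%, against 2.32%). The one lower was Arl16 1452104_at, named after its values were seen, with 3.23, 3.41 and 1.31 in Dap12-ko against 9.2, 11.1 and 8.26 in Dap12-het.

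All 6 called probe sets were of kinds whose probes can be shared. In the manufacturer's naming, plain _at sets have probes for 1 transcript, _a_at and _s_at sets have probes shared by several transcripts, and some probes of _x_at sets can match other sequences. Of the 88 plain member sets tested, 0 were called (18 at an unadjusted p under 0.05), against 0.933% of all plain sets called higher. Of the 39 others, 6 were called higher (15.4%), against 2.08% of all such sets. A count of 0 among 88 is near the share of all plain sets, and the difference between the kinds was not tested. The difference between probe sets of the same gene was compared within arrays as the log2 ratio of the called probe set to the brightest other one. This ratio was higher on every Dap12-ko array than on every Dap12-het array for all 6 genes, by 0.67 for Arf1, 1.07 for Rab2b, 1.68 for Rab31, 1.71 for Rab3a, 1.81 for Arf3 and 1.83 for Rab3c. Each exact permutation p (two-sided) was 0.1, the smallest that 3 against 3 arrays can give, and since the called probe set was chosen for its difference, the ratios only describe how far the probe sets diverged.

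**Figure D3:**
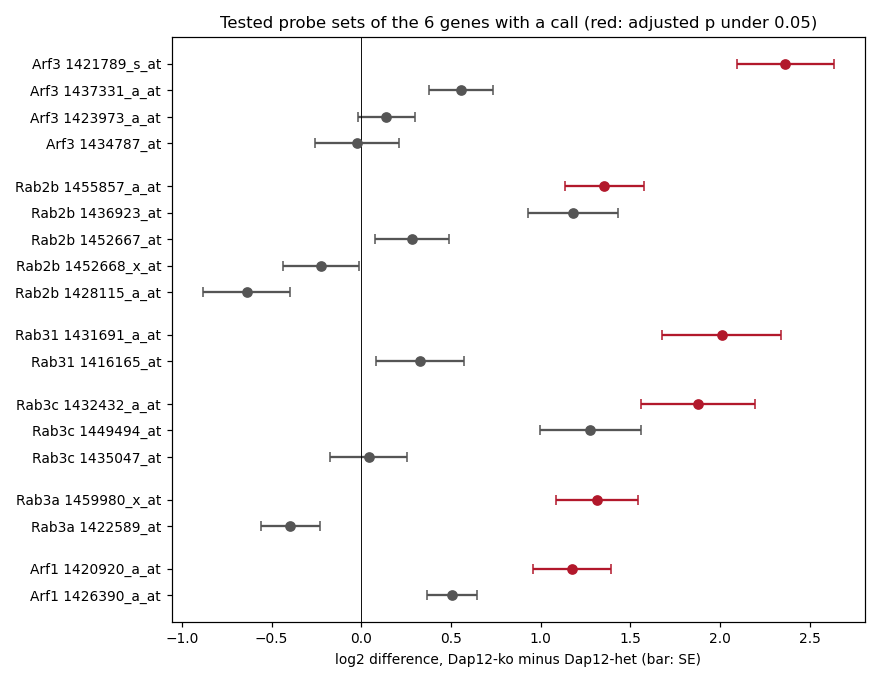
Log2 difference, Dap12-ko minus Dap12-het, with its SE (x axis) for every tested probe set of the 6 genes with a call, grouped by gene, called probe sets in red. Within every gene the called probe set lies furthest to the right, and Rab3a, Rab2b and Arf3 have probe sets on both sides of 0.

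Of the 37 member genes with several tested probe sets, 20 (54.1%) had probe sets of both signs, against 3190 of 5190 genes overall (61.5%). The brightest probe set per gene had a median difference of 0.04 in these members and the other probe sets 0.30, against -0.11 and 0.14 for all genes. With only the brightest probe set of each gene fitted, 1 of 63 member genes was called higher, Rab3a, against 0.244% of 11467 genes. Brightness was the mean over the arrays of both groups, so Dap12-ko signals took part in the choice. In Dap12-het alone, Rab3a 1422589_at was the brighter, with a mean signal of 1866.6 against 1672.85 for the called 1459980_x_at. Probe set 1422589_at lay lower in Dap12-ko (-0.40 ± 0.17), so the Rab3a call is not independent of how brightness was taken.

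**Figure D4:**
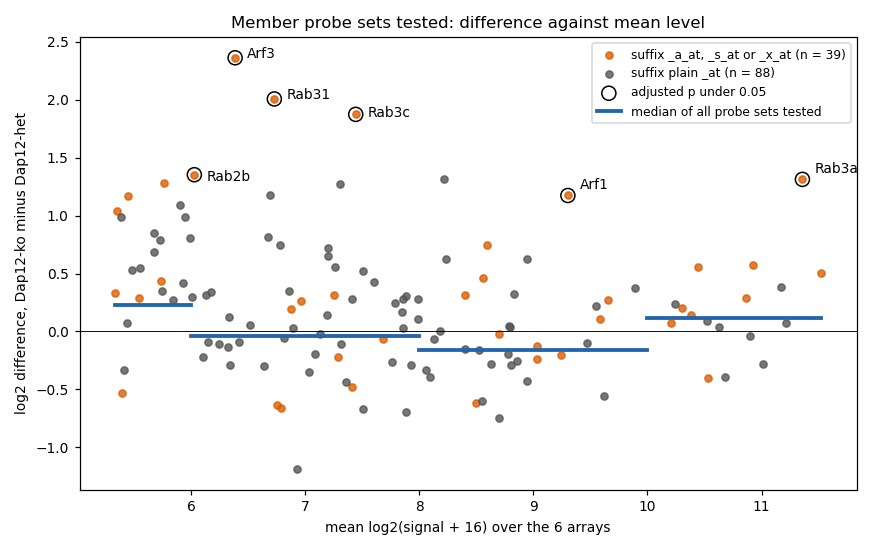
Log2 difference, Dap12-ko minus Dap12-het (y axis), against the mean log2(signal + 16) over the 6 arrays (x axis) for the 127 member probe sets tested. Orange dots are sets with the suffix _a_at, _s_at or _x_at (n = 39), grey dots plain sets (n = 88), circles the 6 called, and blue lines the median of all tested probe sets in 4 ranges of level, which run from 0.23 below a mean of 6 to -0.16 between 8 and 10. All 6 circles are orange, and 4 of them lie at means between 6 and 8.

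The Dap12-ko arrays varied more among themselves than the Dap12-het arrays did. The median log2 range of a member probe set was 0.66 over Dap12-ko and 0.34 over Dap12-het, against 0.71 and 0.36 for all probe sets tested, and 98 of 127 members (77.2%) ranged more widely in Dap12-ko, against 77.1% of all probe sets tested. The widest was Rab40b, a SOCS-box Rab named after its values were seen, with 53.4, 35.5 and 469.8 on Dap12-ko 67, 68 and Ko1, against 83.8, 66.4 and 183 on Dap12-het 75, 76 and 81. It was highest on Ko1 and, within the controls, on 81, and its difference was 0.03 ± 0.76. The dim second Rab40b probe set was also highest on Ko1 and, within the controls, on 81, with 2.56, 10.5 and 94.6 in Dap12-ko against 9.53, 5.75 and 36.8 in Dap12-het.

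Ko1 and Dap12-het 81 also stood apart from the other arrays in Drd1 and Slc6a3, marker genes of brain regions. Both were picked, outside the rule for naming genes, from a list of 14 regional marker genes. Values of the other genes and of the other Drd1 probe set, 1455629_at, are not given here. Drd1, the D1 dopamine receptor of striatal neurons, gave 50.7, 53.4 and 805 in Dap12-ko against 113, 104 and 656 in Dap12-het (1456051_at). Slc6a3, the dopamine transporter of midbrain neurons, gave 395, 205 and 6.45 against 295, 252 and 12.9. Ko1 and 81 were thus high for the striatal gene and low for the midbrain gene, and the 4 other arrays were the reverse. Slc6a3 was close to background on Ko1 and 81. The labels give midbrain taken with diencephalon and basal ganglia for every sample, so both genes belong to the tissue named. Over the 19 tested probe sets of regional markers 0 were called, and 1 had an unadjusted p under 0.05 (5.26%, against 20.9% of all probe sets tested). Their summed signal was 3980 to 10735 on Dap12-ko arrays and 5301 to 8651 on Dap12-het arrays. This sum did not set 81 apart, at 8649 against 8651 on Dap12-het 76. Rab3b, Rab27b and Arf2 were also highest on Ko1 in the probe sets of widest range, but 81 did not share this for Rab27b 1417214_at, where it was lowest of the controls at 67.8. Arf2 1416458_at gave 8.75, 79.4 and 206 in Dap12-ko against 165, 161 and 178 in Dap12-het, with 67 and 68 below every other array. The part of tissue region in the member results was not tested. Without Ko1 and 81 together, an alternative chosen after seeing the data in which 4478 of all probe sets were called, the 6 probe sets were called too, with differences from 0.88 for Arf1 to 2.34 for Arf3.

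**Figure D5:**
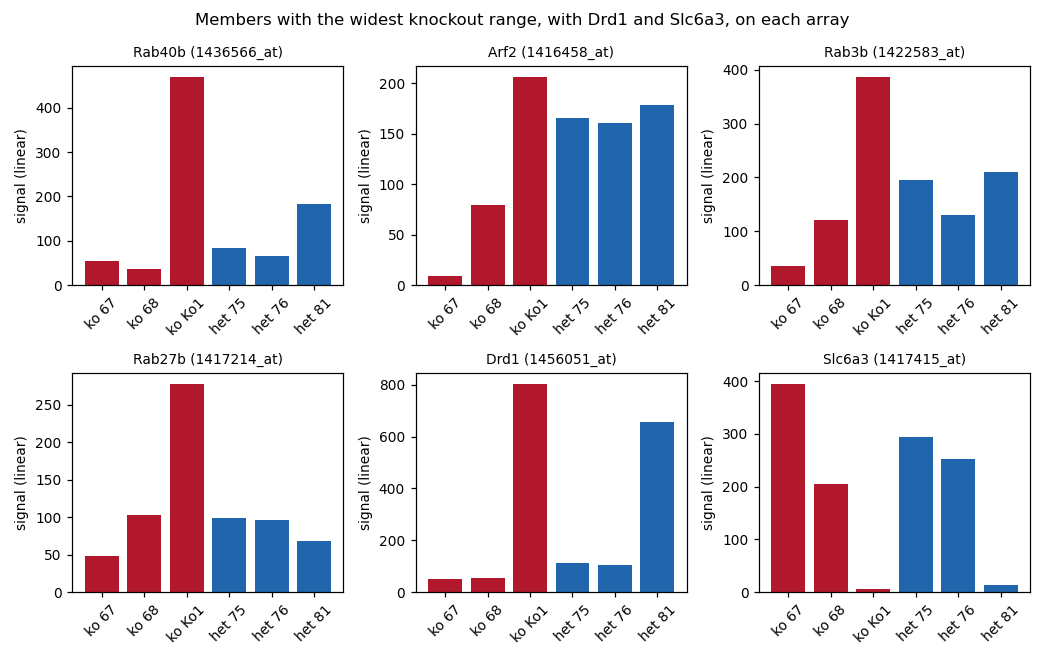
Linear signal (y axis, from 0) on each of the 6 arrays, Dap12-ko in red and Dap12-het in blue, for 4 member probe sets of wide range and for Drd1 and Slc6a3. Rab40b and Drd1 are highest on Ko1 and 81, at 469.8 and 183 and at 805 and 656, while Slc6a3 is lowest on these arrays, at 6.45 and 12.9.

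Without Ko1 alone, which leaves Dap12-ko 67 and 68 (correlated with each other at 0.928), 29 member probe sets of 22 genes were called higher (22.8%, against 11.9% of all probe sets) and 13 of 11 genes lower (10.2%, against 11.3%). The higher ones then included Rab6a 1448304_a_at (0.67 ± 0.11), both Arf1 probe sets and Rab7 1448159_at (0.76 ± 0.19). The lower ones included Rab14 1415686_at (-0.92 ± 0.15), Arf4 1423052_at (-0.85 ± 0.14) and Rab4a 1449048_s_at (-0.76 ± 0.15). Some genes are in both counts. Rab14 1441992_at was called higher in the same fit (1.28 ± 0.28), and Arf2, Rab2b and Rab40c also had probe sets called in both directions. This fit compares 2 Dap12-ko arrays with 3 Dap12-het arrays.

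Markers of cell types differed between the groups to unlike extents. Over all probe sets tested, 1.24% were called higher and 20.9% had an unadjusted p under 0.05. Of 26 tested oligodendrocyte probe sets, 8 were called higher (30.8%), in Mbp, Mobp and Mal. The summed signal of the list was 84888 to 215034 on Dap12-ko arrays and 53504 to 59143 on Dap12-het arrays. Of 25 neuronal probe sets, 4 were called higher (16%), in Syt1 and Map2, with sums of 30140 to 35870 against 25695 to 28274. Astrocyte markers had 1 of 27 called (3.7%), Glul, with sums of 27029 to 29584 against 18362 to 23928. Microglial markers had 0 of 16 called (4, or 25%, at an unadjusted p under 0.05), with sums of 3899 to 4963 against 2939 to 3545. These 4 lists summed higher on every Dap12-ko array than on every Dap12-het array, but such sums weigh the brightest probe sets most. Differences lay below 0 for 4 of the oligodendrocyte, 10 of the neuronal, 9 of the astrocyte and 3 of the microglial probe sets tested. The lowest were -1.03 among neuronal and -1.79 among astrocyte probe sets. The highest signal on an array was 16670 to 46270 in Dap12-ko and 7417 to 7790 in Dap12-het. Endothelial and blood markers had 0 of 7 called (1, or 14.3%, at an unadjusted p under 0.05) and overlapped, with sums of 339 to 698 against 411 to 455. The part of all these markers in the GTPase results was not tested.

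The partners of the GTPases, 191 genes with 331 tested probe sets, were called in both directions equally, 3 higher (0.906%, against 1.24% of all probe sets) and 3 lower (against 0.733%), with a median difference of -0.09. Among Rab effectors, Rph3a, the rabphilin that binds Rab3a on synaptic vesicles, gave 222, 245 and 404 in Dap12-ko with 1434635_at against 1170.0, 1016 and 1085 in Dap12-het. It fell by 1.90 ± 0.24 (adjusted p = 0.0172), with no overlap, while its other probe set overlapped (-0.57 ± 0.41). Rims1, a Rab3 effector of the active zone, was not called and differed by -0.89 ± 0.24 and 0.72 ± 0.26 in its 2 probe sets. Vps35, the retromer subunit, rose in 1415784_at, with 129, 305 and 242 in Dap12-ko against 42.0, 45.4 and 25.6 in Dap12-het (2.11 ± 0.32, adjusted p = 0.0277). Its brighter probe set, 1415783_at, differed by 0.21 ± 0.17.

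Among Arf and Arl effectors, Gga1, a clathrin adaptor recruited by Arf at the trans-Golgi, gave 47.0, 17.9 and 10.6 in Dap12-ko against 169, 193 and 168 in Dap12-het. These values are of 1 probe set, which fell by 2.32 ± 0.32 (adjusted p = 0.022), the largest decrease among the partner probe sets tested. The Gga1 probe sets on the arrays were 1423834_s_at and 1459863_x_at, both of kinds whose probes can be shared. Values of the one not called are not given here. Vps41, a subunit of the HOPS tether, rose in 1437901_a_at, with 296, 217 and 571 in Dap12-ko against 83.8, 90.0 and 90.3 in Dap12-het (1.75 ± 0.32, adjusted p = 0.0391), and differed by 0.69 and -0.24 in the others. Ap3b2, the neuronal AP-3 subunit, missed the threshold at -1.10 ± 0.24 (adjusted p = 0.0556).

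Of the 53 tested probe sets of Rab GAPs, 1 was called in each direction (1.89% higher, against 1.24% of all probe sets tested). An unadjusted p under 0.05 was seen for 22 (41.5%, against 20.9%). In 1 probe set, Tbc1d30 gave 35.2, 50.6 and 28.8 in Dap12-ko against 172, 149 and 119.6 in Dap12-het and fell by 1.59 ± 0.24 (adjusted p = 0.0277). The Tbc1d30 probe sets on the arrays were 1430607_at and 1439634_at, and values of the one not called are not given here. Tbc1d14 rose in 1432027_a_at, with 178, 154 and 65.5 in Dap12-ko against 19.99, 31.8 and 20.8 in Dap12-het (1.80 ± 0.35, adjusted p = 0.0424), and its brighter probe set differed by -0.04 ± 0.19. Rab exchange factors (60 probe sets), Arf exchange factors (19), Arf GAPs (39) and genes of GDP dissociation and prenylation (20) had 0 called. At an unadjusted p under 0.05 were 13, 1, 7 and 1 (21.7%, 5.26%, 17.9% and 5%, against 20.9% of all probe sets tested). Nearest the threshold were Trappc4, a TRAPP subunit (0.86 ± 0.20, adjusted p = 0.0637), Dennd1a, a Rab35 exchange factor (-0.85 ± 0.21, adjusted p = 0.0729), and the Arf GAP Agap3 (-1.63 ± 0.35, adjusted p = 0.055). Gdi2, a GDP dissociation inhibitor, ranged from -0.20 to 0.54 over 6 probe sets, and Lrrk2, a kinase of Rab proteins, differed by -0.29 ± 0.46, being highest on Ko1 and 81, at 139.9 and 152.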

How the data were processed

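Brain RNA was profiled on 6 one-colour Affymetrix arrays, 3 per group. The deposited values are linear signal intensities, made with GCOS (the Affymetrix scanner software) per the submitters' processing notes. The version and the summary algorithm are not given in the sources used here. With 2% trimmed from either end, each array's deposited intensities averaged 100, and this scaling was kept. Of 45101 probe sets, 64 controls were left out, and 34945 had 1 symbol, 932 several and 9160 none listed.

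Intensities were compared as log2(signal + 16), over the 22518 probe sets whose mean lay above the median, with limma 3.58.1 in R 4.3.3 (lmFit, eBayes with trend, two-sided, Benjamini-Hochberg over all probe sets tested, threshold 0.05). Differences are Dap12-ko minus Dap12-het with SE. The number of arrays limits the precision. The procedure was also run on simulated data that had no differences between whole arrays, so that run does not bear on the calls made here. Replicate names were not shared between groups, so samples were not paired.

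Named are the called members with their genes' other probe sets, the 20 further genes of lowest p, fixed members such as Rab5a and Rab7, and the called or nearest partners of each list. The members and lists were chosen with earlier results of these data known. In all, 18 alternatives were run.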

Additional observations from a re-analysis of the deposited data

How the results depend on the processing

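Over the 18 alternatives, the 6 called member probe sets, where held, differed by 0.77 (Arf1, arrays centred on their medians) to 3.08 (Arf3, floor of 1). Every Dap12-ko signal of these probe sets was above every Dap12-het signal. Only rescaling of the arrays could therefore have turned their sign, and the positive sign under the other alternatives was fixed in advance. The calls of these 6 were kept under only some of the alternatives. Against 6 members called higher, there were 3 with quantile normalization, with median centring, in the upper 25% by level and without a trend of the spread, 1 without a filter on level or with the brightest probe set per gene, 27 with array weights, 2 without Dap12-ko 67 and 68, and 21 without Ko1 and Dap12-het 81, an alternative chosen after seeing the data. Leaving out 1 array gave 0 to 29. Members called lower, 0 at first, were 10 with array weights, 11 without Ko1 and 81, and 0 to 13 leaving out 1 array. Over all probe sets, 445 calls became 129 with quantile normalization, 124 without a filter, 180 without a trend, 4786 with array weights, 116 with the brightest probe set per gene, 4478 without Ko1 and 81, and 0 to 5220 leaving out 1 array.

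With centring, the median difference of all probe sets became -0.40 and that of the members -0.26 (0.14 at first), and this gave 100 higher and 481 lower calls (280 and 165 at first), and turned uncalled Rab1a to -0.016, Rab2a to -0.025, Rab5a to -0.16, Rab29 to -0.064, Rab11b to -0.054, Arl1 to -0.18, Arl3 to -0.20 and Arl2 to -0.35. Without Dap12-ko 67 and 68, Dap12-ko is Ko1 alone, assumed to vary like the Dap12-het arrays; there Arf4 turned to 0.035, Rab27a to 0.0017, Rab3b to 1.08 and Arl2 to -0.38. Without Ko1 and 81, Arf5 turned to 0.014 and Rab8b to 0.022. Leaving out 1 array, Arl3 ran from -0.059 to 0.42, Rab27a from -0.39 to 0.057, Rab8b from -0.28 to 0.067, Rab3b from -1.19 to 0.30 and Arl2 from -0.20 to 0.26. The causes were not tested. No paired analysis was possible because the groups share no replicate names.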
